A study of Mus musculus with 4 samples.

Results

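The genes described here were the 4 fibroblast growth factor (FGF) receptor genes Fgfr1, Fgfr2, Fgfr3 and Fgfr4, and 5 feedback targets of the pathway, Spry2, Spry4, Dusp6, Etv4 and Etv5. They were chosen by name, not by value, and all 9 had a row in each of the 3 single-cell count tables, which listed 16639, 16341 and 18640 genes. The study traced where heart progenitors arise in the primitive streak of the mouse gastrula. Whole embryos were dissociated and their cells captured with the 10x Genomics 3′ kit, which counts each captured transcript end by a unique molecular identifier (UMI). All embryos carried TnEGP-CreERT2/+, which expresses the tamoxifen-inducible recombinase CreERT2 under the control of the streak gene T, and R26Rtdtomato/R26Rtdtomato, the reporter that it switches on. All were given tamoxifen by gavage (0.08 mg/bw), so no library came from untreated or reporter-free embryos.

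The mid- to late-streak library (MS-LS) held 3635 cells, collected at E6+21h after tamoxifen at E6+5h. The no-bud to early-bud library (OB-EB) held 3994 cells, collected at E7+3h after tamoxifen at E6+21h. The early head fold library (EHF) held 3494 cells, collected at E7+14h after tamoxifen at E7+7h. A second EHF sample had the same count in all 65128160 places of its table and was counted once. Each stage was thus 1 library in which embryos were pooled without a label per cell. Stage, tamoxifen time and library cannot be told apart, cells are not replicates, and no test between groups was possible. Intervals given below cover counting error at 95% only.

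FGF ligands bind receptor tyrosine kinases encoded by the Fgfr genes and signal through RAS to the kinase ERK. In the gastrula the pathway is known for the exit of cells from the streak through Fgfr1, for the upkeep of the caudal growth zone, and for the renewal of trophoblast stem cells in the extra-embryonic (Exe) ectoderm through Fgfr2. Active ERK switches on its own inhibitors, the Sprouty proteins Spry2 and Spry4 and the ERK phosphatase Dusp6, together with the ETS-family transcription factors Etv4 and Etv5. Transcripts of these targets are widely read as a sign of recent FGF signalling.

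Promoter windows from RefSeq (GRCm38.p6), running 250 bases before to 50 after a start site, were matched for 6 of the 9 genes. Those of Dusp6 and of the outer start site of Etv5 are shown because these were the targets whose levels followed each other most closely across cell classes. CGGAAG or its reverse complement CTTCCG, the letters of the core that ETS factors bind, is in capitals where present. Both letter strings were searched on both strands, and 16.9% of all 32851 windows held at least 1 match.
Dusp6, chr10:99262981-99263280, plus strand: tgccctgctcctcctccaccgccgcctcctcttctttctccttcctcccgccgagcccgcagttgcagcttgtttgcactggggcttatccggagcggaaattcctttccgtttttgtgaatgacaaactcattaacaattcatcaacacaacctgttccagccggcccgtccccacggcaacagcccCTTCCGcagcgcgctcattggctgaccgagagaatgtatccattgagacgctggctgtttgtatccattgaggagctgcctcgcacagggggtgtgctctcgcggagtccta
Etv5, chr16:22439521-22439820, minus strand: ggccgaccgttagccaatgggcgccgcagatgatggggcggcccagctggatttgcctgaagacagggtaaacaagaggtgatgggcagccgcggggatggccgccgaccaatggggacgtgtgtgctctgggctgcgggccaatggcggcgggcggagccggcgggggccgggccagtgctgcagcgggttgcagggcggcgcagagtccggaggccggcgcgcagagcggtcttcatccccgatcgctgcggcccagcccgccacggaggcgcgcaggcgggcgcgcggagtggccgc
The Dusp6 window held the letters once, beginning 62 bases before the start site and on the opposite strand, and the other 7 windows of member genes held none. This describes the letters of these windows only.

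In the mouse genome build of the tables (GRCm38), Fgfr1 lies on chromosome 8 (25513654 to 25575718) and Fgfr2 on chromosome 7 (130162451 to 133123350, the span of all its annotated transcripts). Fgfr3 lies on chromosome 5 (33721674 to 33737068) and Fgfr4 on chromosome 13 (55152640 to 55168759). Spry2 lies on chromosome 14 (105891947 to 105896819), Spry4 on chromosome 18 (38586247 to 38601415) and Dusp6 on chromosome 10 (99263231 to 99267489). Etv4 lies on chromosome 11 (101769742 to 101785371) and Etv5 on chromosome 16 (22381309 to 22439719). All 9 are annotated as protein coding.

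Cells of each library were grouped into classes by marker genes that did not include the FGF pathway, and a class is called "X-like" after its markers. The classes held 2527 of 3635 cells in MS-LS, 1644 of 3994 in OB-EB and 2612 of 3494 in EHF, and the others stayed unnamed. Levels are given in CPM, the UMIs of a gene per 1000000 UMIs of the class. The libraries differed in depth, with a median of 4251 UMIs per cell in MS-LS, 2620.5 in OB-EB and 5584 in EHF. In the classes that matter most below, Tbx6 stood at 205 CPM in EHF presomitic mesoderm-like cells against 8.81 in other cells, Hesx1 at 103 against 3.39 in rostral neuroectoderm-like cells, and Elf5 at 181 against 1.67 in EHF Exe ectoderm-like cells. In caudal epiblast-like cells Nkx1-2 stood at 325 against 22.7, but Cdx4 at only 8.36 against 6.45. Some markers ran the other way, such as Apln in MS-LS nascent mesoderm-like cells (21.3 against 33.8) and Utf1 in EHF epiblast-like cells (31.1 against 71.5). The EHF class scored as epiblast-like was led by Ptn, Cxcl12 and Pim2 and also by Irx3, a neural gene, so its name is weak.

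**Figure D1:**
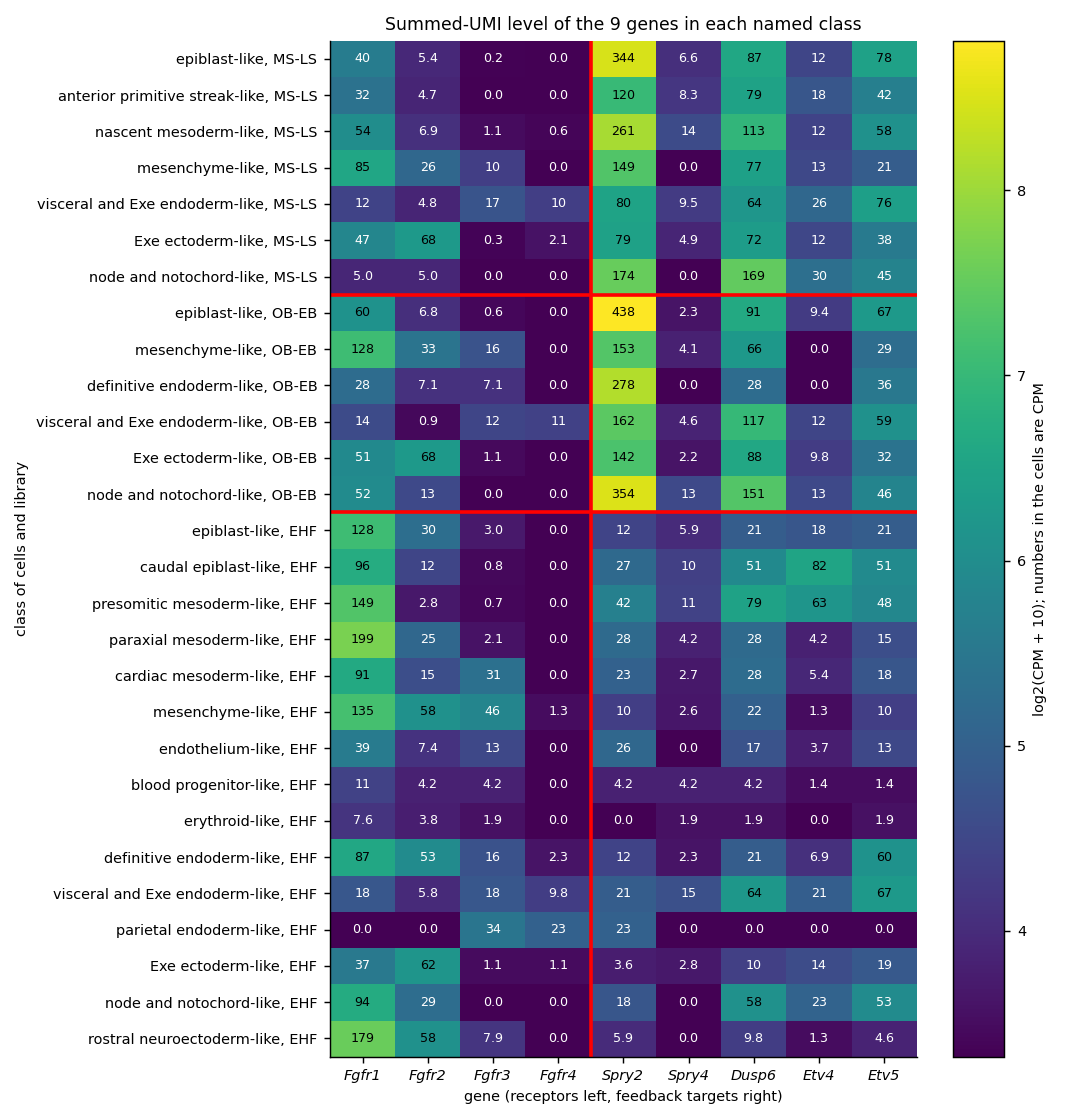
Level of each of the 9 genes (columns, receptors left of the vertical red line) in each named class of at least 20 cells (rows, by library); colour is log2(CPM + 10) and the printed numbers are CPM. Spry2 is brightest in MS-LS and OB-EB, Fgfr1 in EHF, and Fgfr4 is at or near 0 outside the endoderm rows.

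Fgfr1 was the receptor with the most UMIs in every library, and its level over all cells was 37.7 CPM in MS-LS, 56.1 in OB-EB and 82.7 in EHF. It encodes the receptor through which cells leave the streak. In MS-LS it was highest in mesenchyme-like cells (84.9 CPM, interval 58.4 to 119). Nascent mesoderm-like (54.2), Exe ectoderm-like (47.3) and epiblast-like (39.7) cells followed, with intervals that overlapped one another. Even so, the log2 ratio of nascent mesoderm-like over epiblast-like cells was off 0, at 0.45 (0.07 to 0.82). In OB-EB mesenchyme-like cells again led with 128 CPM (87.0 to 182), against 59.9 (51.6 to 69.2) in epiblast-like cells. In EHF it peaked at 199 CPM (161 to 243) in paraxial mesoderm-like and 179 (158 to 202) in rostral neuroectoderm-like cells, and these neighbours were not separated by their intervals. Presomitic mesoderm-like cells stood at 149 CPM (130 to 171) and caudal epiblast-like cells at 95.7. Fgfr1 was low in visceral and Exe endoderm-like cells of all stages (11.5, 13.8 and 17.9 CPM) and in blood progenitor-like (11.2) and erythroid-like cells (7.60), and no UMI was counted in EHF parietal endoderm-like cells.

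Fgfr2, the receptor of the trophoblast lineage, had its highest level in Exe ectoderm-like cells in each library, at 68.5 CPM in MS-LS (59.3 to 78.8), 68.3 in OB-EB (52.5 to 87.4) and 62.3 in EHF (54.4 to 71.0). The intervals of the class overlapped across the 3 libraries. In the rest of the embryo Fgfr2 stood at 5.70 CPM in MS-LS, 6.57 in OB-EB and 21.2 in EHF. At EHF, rostral neuroectoderm-like (58.4 CPM), mesenchyme-like (58.0) and definitive endoderm-like cells (52.8) carried Fgfr2 at levels whose intervals overlapped that of the Exe ectoderm-like cells. In presomitic mesoderm-like cells it was nearly absent, with 4 UMIs in 265 cells (2.81 CPM). After each cell was thinned to 2000 UMIs, the share of EHF Exe ectoderm-like cells with a UMI of Fgfr2 was 11.9% (32.9% unthinned, median 6934.5 UMIs), against 1.01% (2.02% unthinned, median 5147 UMIs) in erythroid-like cells, which are not known to use the gene.

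Fgfr3 and Fgfr4 marked other compartments. Fgfr3, best known as a receptor of cartilage, stood at 17.0 CPM in visceral and Exe endoderm-like cells of MS-LS, 12 in OB-EB and 17.9 in EHF. Mesenchyme-like cells carried it at 10.3 CPM (4 UMIs), 16.5 (4 UMIs) and 46.4 (32.5 to 64.2, 36 UMIs) in the same order of libraries, and EHF cardiac mesoderm-like cells at 30.9 (19.6 to 46.4). Fgfr3 stood under 1 CPM in epiblast-like cells of MS-LS (0.235) and OB-EB (0.648). Fgfr4 was the rarest of the 9, with 41, 14 and 32 UMIs in the whole of MS-LS, OB-EB and EHF. Of these, 30, 12 and 22 UMIs fell in visceral and Exe endoderm-like cells, whose level of Fgfr4 was 10.2, 11.0 and 9.83 CPM. In EHF parietal endoderm-like cells, the class that lays down Reichert's membrane, Fgfr3 (33.9 CPM, 6 UMIs) and Fgfr4 (22.6 CPM, 4 UMIs) were the only receptors with a UMI, in a class of 64 cells with a median depth of 2742.5 UMIs.

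As shares of all receptor UMIs, 4 patterns are described here, without a rule that sets them apart. Other classes lay between them, such as EHF rostral neuroectoderm-like cells (Fgfr1 73.0%, Fgfr2 23.8%) and definitive endoderm-like cells (Fgfr1 55.1%, Fgfr2 33.3%, Fgfr3 10.1%). These shares count captured transcript ends, which do not depend on gene length, though genes can differ in how well they are captured. Fgfr1 made up 87.6% of receptor UMIs in epiblast-like cells of MS-LS, 88.9% in those of OB-EB and 97.7% in EHF presomitic mesoderm-like cells. Fgfr2 made up 57.9%, 56.8% and 61.5% in Exe ectoderm-like cells of MS-LS, OB-EB and EHF, with Fgfr1 at 40%, 42.3% and 36.3%. Fgfr3 and Fgfr4 together were the larger part in visceral and Exe endoderm-like cells, with 39.1% and 23.4% in MS-LS, 31.7% and 29.3% in OB-EB, and 34.8% and 19.1% in EHF. EHF mesenchyme-like cells held a mixture of Fgfr1 (56.1%), Fgfr2 (24.1%) and Fgfr3 (19.3%), and cardiac mesoderm-like cells held Fgfr1 (66.7%) and Fgfr3 (22.5%).

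**Figure D2:**
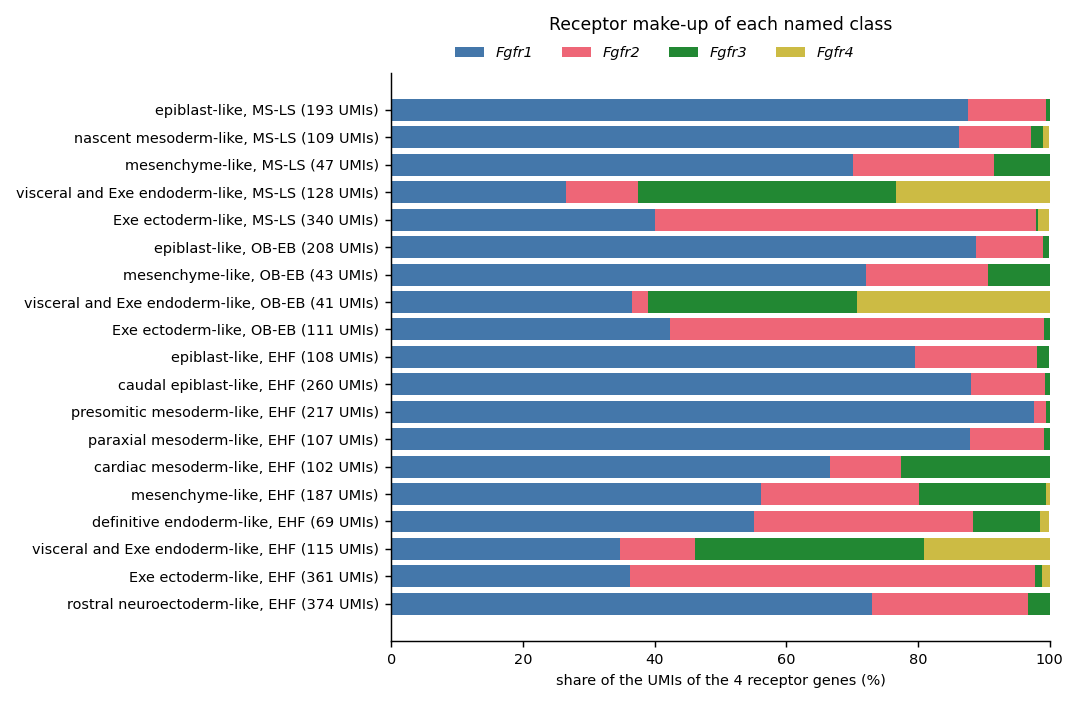
Share of the UMIs of the 4 receptor genes (x axis, percent) in each named class with at least 40 such UMIs (rows, with the number of UMIs). Fgfr1 fills most of the epiblast and mesoderm bars, Fgfr2 the larger part of the 3 Exe ectoderm-like bars (56.8% to 61.5%), and Fgfr3 with Fgfr4 most of the visceral and Exe endoderm-like bars.

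The feedback targets were compared first at EHF along the body axis, in caudal epiblast-like cells (376 cells, the posterior growth zone) and rostral neuroectoderm-like cells (201 cells, the future forebrain). Etv4 gave 197 UMIs (82.3 CPM) in the caudal class and 2 UMIs (1.31 CPM) in the rostral class, a log2 ratio of 5.97 (4.10 to 9.03). Etv5 stood at 51.4 against 4.59 CPM (log2 ratio 3.48, 2.40 to 4.83) and Dusp6 at 51.0 against 9.84 CPM (2.37, 1.60 to 3.25). Spry2 stood at 26.7 against 5.90 CPM (2.18, 1.17 to 3.37). Spry4 gave 25 UMIs in the caudal class and 0 in the rostral class, and set against a floor of 3 UMIs its log2 ratio was at least 2.41. All 5 targets were thus higher caudally past 2-fold, where 4.59% of the 9047 genes with enough UMIs were (7.73% in either direction). With every cell thinned to 2000 UMIs, Dusp6 stood at 0.97 and the bound of Spry4 at 0.51, short of 2-fold. The bound of Spry4 was also short of it at a resolution of 8 (0.89) and when the FGF genes entered the clustering (0.72).

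The receptors ran the other way along the same axis. Fgfr2 stood at 12.1 CPM caudally and 58.4 rostrally (log2 ratio -2.27, -2.93 to -1.65), and Fgfr3 at 0.836 and 7.87 CPM (-3.24, -6.44 to -1.07), so 2 receptors were lower past 2-fold, against 3.14% of genes, of which only Fgfr2 reached the 20 UMIs that this share requires. Fgfr1 stood at 95.7 and 179 CPM (-0.90, -1.16 to -0.65), and Fgfr4 had no UMI in either class. The rostral class therefore held more receptor transcripts of each of the 3 detected kinds and fewer transcripts of each of the 5 targets. Without the cells rich in the transcripts described with Spry2 below, the 5 targets and the 3 receptors kept these directions.

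Ligand genes lay on the caudal side too. Of 18 FGF ligand genes 6 reached 20 UMIs over both classes. Fgf8, a ligand of the streak, stood at 68.5 against 3.93 CPM (log2 ratio 4.12, 2.97 to 5.59) and Fgf3 at 16.7 against 5.25 (1.67, 0.56 to 2.98). Fgf4, Fgf15 and Fgf17, named after their values were seen, were also higher past 2-fold (4.05, 1.30 and 5.05). Fgf5, a ligand of the early epiblast, was lower (-2.72, -4.48 to -1.27). Among 16 further feedback and response genes, 14 reached 20 UMIs, of which 5 were higher and 0 lower past 2-fold, and the median log2 ratio of the 14 was 0.42 against 0.01 over all genes. Of all genes 4.59% were higher and 3.14% lower. None of the 10 genes from RAS to ERK passed 2-fold (median 0.05), and of 11 measured co-receptors and adaptors 1 was higher and 1 lower.

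Within the mesoderm of EHF, presomitic mesoderm-like cells (265 cells, the unsegmented mesoderm next to the growth zone) were set against paraxial mesoderm-like cells (83 cells, led by the somite genes Tcf15 and Meox1). Etv4 gave 89 UMIs at 62.6 CPM and 2 UMIs at 4.23 CPM (log2 ratio 3.89, 1.99 to 6.95). Etv5 stood at 48.5 and 14.8 CPM (1.71, 0.59 to 3.08) and Dusp6 at 78.8 and 27.5 CPM (1.52, 0.69 to 2.47). Of the 9 genes, 4 were higher past 2-fold (6.52% of 7014 genes were) and 2 lower (3.36%, or 9.88% in either direction). Among members with the 20 UMIs that these shares require, 3 were higher and 0 lower. Spry4, the remaining gene past 2-fold upwards, rested on 16 and 2 UMIs with an interval that spanned 0 (1.41, -0.68 to 4.58), and Spry2 stood at 42.2 and 27.5 CPM (0.62, -0.26 to 1.61).

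Fgfr2 went the opposite way, at 2.81 CPM in presomitic and 25.4 in paraxial mesoderm-like cells (-3.17, -5.26 to -1.45). Fgfr3 was lower too but on 1 UMI in each class (-1.59, -7.88 to 4.71). Fgfr1 stood at 149 and 199 CPM (-0.42, -0.77 to -0.05), a direction that turned with a clustering resolution of 2 (0.50). The presomitic class joined a cluster led by Gal, Mixl1 and T (112 cells) and a cluster led by Aldh1a2 and Tbx6 (153 cells). Tbx6 was among the leading genes of both clusters. Etv5 stood at 71.7 CPM in the cluster led by Gal and 30.2 in that led by Aldh1a2, Etv4 at 74.9 and 52.9, and Spry4 at 19.1 and 5.03, whereas Fgfr1 stood at 107 and 182.

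Among ligands, 5 of 18 reached 20 UMIs over these 2 classes and 4 were higher in the presomitic class past 2-fold. Fgf3 stood at 72.4 against 19.0 CPM (1.93, 0.95 to 3.10) and Fgf15, named after its value was seen, at 83.0 against 6.35 (3.71, 2.13 to 6.01), while Fgf8 stood at 54.8 and 36.0 CPM. Of 10 measured further feedback and response genes 3 were higher and 3 lower, where 6.52% and 3.36% of all genes were. The higher ones, named after their values were seen, were the ERK-pathway inhibitors Spred2 (1.73) and Il17rd (at least 1.83) and the phosphatase Dusp4 (1.58, -0.12 to 3.95). The lower ones were Dusp5, Egr1 and Fos, with Fos at 26.7 against 67.7 CPM (-1.34, -2.06 to -0.62). Fos and Egr1 encode immediate-early transcription factors.

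**Figure D3:**
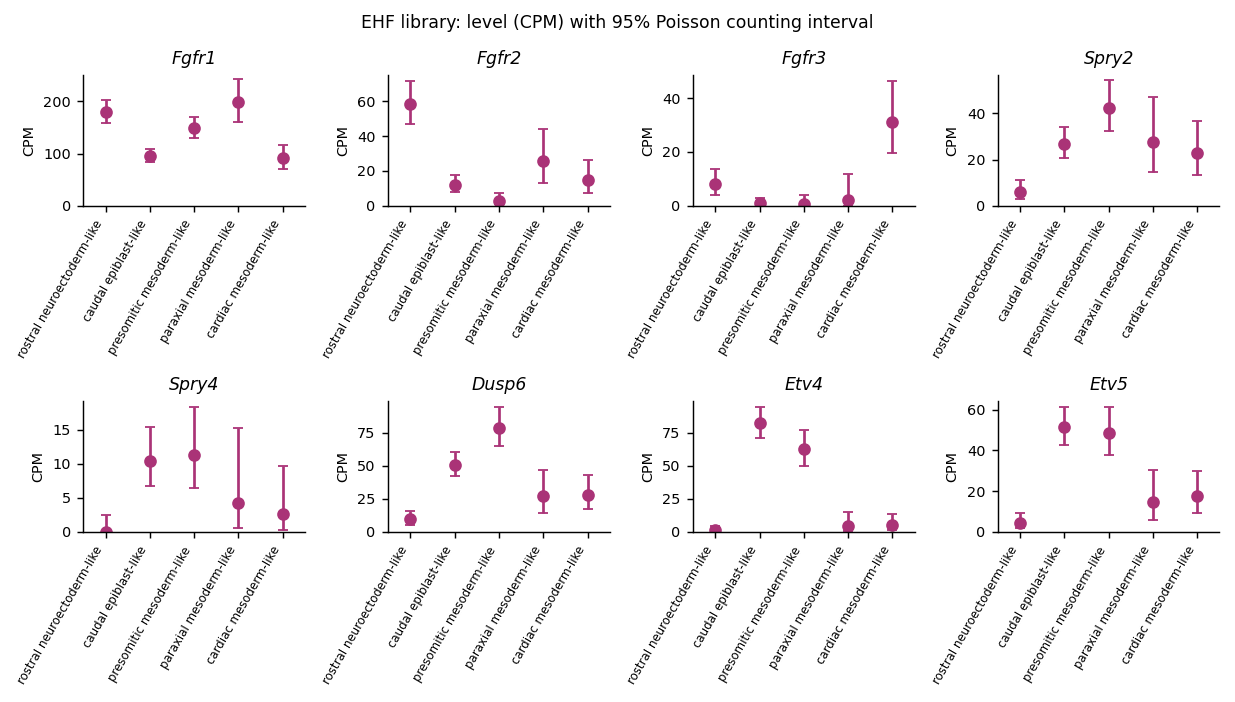
Level (CPM, y axes from 0) of 8 of the genes in 5 classes of the EHF library; points are the CPM of summed UMIs and bars 95% Poisson counting intervals. The 5 targets peak in the caudal epiblast-like and presomitic mesoderm-like classes, Etv4 at 82.3 and 62.6 CPM, while Fgfr2 is highest in the rostral class at 58.4 CPM and Fgfr3 in the cardiac class at 30.9 CPM.

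Cardiac mesoderm-like cells of EHF (101 cells, with Nkx2-5 at 64.5 CPM against 1.48 in other cells) were set against paraxial mesoderm-like cells. Fgfr3 gave 23 UMIs (30.9 CPM) in the cardiac and 1 UMI (2.12 CPM) in the paraxial class, a log2 ratio of 3.87 (1.25 to 9.23). Fgfr1 was lower, at 91.4 against 199 CPM (-1.12, -1.59 to -0.66), though short of 2-fold at a resolution of 2 (-0.48), and Fgfr3 stood at 1.71 with cells thinned to 2000 UMIs. Thus 1 of the 9 genes was higher past 2-fold (5.21% of 5857 genes were) and 1 lower (3.30%, or 8.50% in either direction). Dusp6 stood at 28.2 and 27.5 CPM (0.04, -1.03 to 1.16), and the intervals of the other 4 targets spanned 0 as well, so differences of up to about 2-fold in Dusp6 could not be seen at this depth.

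The recombinase reporter split cells of 3 EHF classes into labelled cells, with at least 1 UMI of tdTomato, and unlabelled cells, without one. A cell without a UMI can still carry the label. In presomitic mesoderm-like cells (132 labelled, 133 unlabelled) Dusp6 stood at 79.7 and 77.7 CPM (log2 ratio 0.04, -0.52 to 0.60), Etv4 at 61.4 and 64.0 (-0.06, -0.69 to 0.58) and Fgfr1 at 150 and 148 (0.02, -0.38 to 0.43). In caudal epiblast-like cells (58 labelled, 318 unlabelled) Etv4 stood at 81.3 and 82.5 CPM (-0.02, -0.62 to 0.53). Every interval of a log2 ratio between labelled and unlabelled cells spanned 0 for all 9 genes in caudal epiblast-like, presomitic and paraxial mesoderm-like cells where a ratio could be formed. Median depth was 5376.5 UMIs in labelled and 4746 in unlabelled presomitic mesoderm-like cells.

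At the earlier stages most targets lay within 2-fold between epiblast-like cells and the cells closest to nascent mesoderm. In MS-LS, nascent mesoderm-like cells (317 cells) were set against epiblast-like cells (872 cells). Spry4 stood at 13.8 and 6.57 CPM (1.08, 0.23 to 1.91) and was, with Fgfr3 on 2 and 1 UMIs (below the 20 that the shares of all genes require), past 2-fold upwards, so 2 of the 9 were higher where 6.69% of 9280 genes were, and 0 were lower where 7.94% were (14.6% in either direction). Dusp6 stood at 113 and 86.8 CPM (0.38, 0.12 to 0.63) and Fgfr1 at 54.2 and 39.7 CPM (0.45, 0.07 to 0.82). Etv5 was lower, at 58.3 against 77.7 CPM (-0.41, -0.75 to -0.09), though at 0.07 with cells thinned to 2000 UMIs, and Etv4 stood at 11.5 and 12 CPM (-0.05, -0.88 to 0.72). Spry4 lay between 0.45 and 1.18 over the alternatives, and the count of 2 became 1 or 0 under 6 of them.

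No cluster of OB-EB met the marks of nascent mesoderm, so the best-scoring cluster, with 121 cells led by Lefty2 and Foxc1, was used unnamed. It scored 1.323 for nascent and 1.17 for paraxial mesoderm, too close for a name. Clusters of 296 and 250 cells, with Mesp1 among their leading genes, also had nascent mesoderm as best type (0.805 and 0.74) but under 3 markers detected. With cells thinned to 2000 UMIs, at least 1 of the 5 targets was found in 74.9% and 29.1% of their cells. In the cluster used the share was 37.5%, so the choice of cluster matters here. Against OB-EB epiblast-like cells it gave Dusp6 at 109 and 91.3 CPM (0.26, -0.21 to 0.70), Etv4 at 8.90 and 9.39 (-0.08, -2.05 to 1.43) and Etv5 at 40 and 66.7 (-0.74, -1.52 to -0.04). Of the 9, Spry2 was the only one past 2-fold with an interval off 0, at 100 against 438 CPM (-2.13, -2.59 to -1.70). That ratio of Spry2 stood at -0.60 among cells within the limit of the 10-gene set described below, and at 0.76 at a resolution of 8. Most OB-EB cells lay above that limit. Of the 9, 2 were higher (6.30% of 8131 genes were) and 1 lower (11.2%, or 17.5% in either direction). The 2 higher ones were Fgfr3 on 1 and 2 UMIs (1.78, -4.10 to 6.04) and Spry4 on 3 and 7 (1.56, -1.03 to 3.69), both under the minimum of 20 UMIs of these shares, and 0 were higher above it.

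The same class across stages differed in a few genes. In epiblast-like cells, Fgfr1 stood at 39.7 CPM in MS-LS and 59.9 in OB-EB (log2 ratio 0.60, 0.29 to 0.90), and Spry4 at 6.57 and 2.27 CPM (-1.54, -2.97 to -0.31). Dusp6 stood at 86.8 and 91.3 (0.07, -0.16 to 0.30) and Etv5 at 77.7 and 66.7 (-0.22, -0.48 to 0.04). In this comparison 1 of the 9 was past 2-fold upwards, Fgfr3 on 2 and 1 UMIs (under the minimum of 20), where 7.46% of 9813 genes were, and 1 downwards, where 3.69% were. Between the nascent mesoderm-like cells of MS-LS and the unnamed OB-EB cluster, 0 of the 9 were higher (5.97% of 6730 genes were) and 2 were lower (8.20%), Spry2 at 261 and 100 CPM (-1.38, -1.86 to -0.94) and Spry4 at 13.8 and 6.67 (-1.05, -3.43 to 0.67). Neither direction held under every alternative. Spry2 stood at 0.01 at a resolution of 2, 1.61 at 8, 0.30 with Leiden clustering and 0.22 within the limit of the 10-gene set, and Spry4 at 0.49 within that limit.

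Cells that the study itself assigned to the primitive streak, by barcode, were compared without the clusters used here. The 252 OB-EB streak cells against the 318 of MS-LS had Fgfr1 at 74.5 and 48.6 CPM (log2 ratio 0.62, 0.12 to 1.10), Dusp6 at 148 and 125 (0.24, -0.10 to 0.56), Etv5 at 50.1 and 58.1 (-0.21, -0.79 to 0.33) and Etv4 at 12.2 and 11.4 (0.09, -1.20 to 1.25). Spry2 was higher at 549 against 116 CPM (2.24, 2.01 to 2.47) and Spry4 lower at 2.71 against 11.9 (-2.14, -5.26 to -0.13), 1 gene each way, where 4.41% and 9.94% of 7535 genes were (14.3% in either direction). Neither passed 2-fold among cells within the limit of the 10-gene set, where Spry2 stood at 0.68 and Spry4 at -0.07, but most OB-EB cells lay above that limit. The OB-EB level of Spry4 rested on 2 UMIs, and the median log2 ratio of all genes was -0.15. Only 36 cells were assigned to the anterior streak of MS-LS, and against the other streak cells 0 of the 9 were higher past 2-fold (5.06% of 6919 genes were) and 2 were lower (12.6%), Fgfr1 at 18.2 against 48.6 CPM (-1.42, -3.72 to 0.17) and Etv5 at 24.2 against 58.1 (-1.26, -3.16 to 0.13), with intervals that spanned 0.

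Spry2 stood apart from the other targets in a way that crossed cell types. Its level over all cells was 182 CPM in MS-LS, 323 in OB-EB and 15.8 in EHF, whereas Dusp6 stood at 84.1, 94.2 and 31.3 and Etv5 at 58.3, 44.2 and 29.1. A cluster of 191 MS-LS cells named epiblast-like had Spry2 at 1050 CPM and was led by Rpgrip1, Alkbh5, Rbm15 and Wtap rather than by epiblast genes. In OB-EB, clusters 5, 10 and 20 had it at 1090, 1170 and 1060 CPM. A set of 10 genes was chosen after these values were seen because its members were high in the same cells as Spry2 (Wtap, Alkbh5, Rpgrip1, Cbx3, Rbm15, Supt16, Slc39a1, Hsf2, Tmf1 and Paip1). The summed level of the set was 1580 CPM in MS-LS, 5450 in OB-EB and 596 in EHF.

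In MS-LS, the 1124 cells in which the set exceeded 1500 CPM had Spry2 at 458 CPM, against 60.1 in the other 2511 (log2 ratio 2.93). In OB-EB the 3378 cells above this limit had it at 371 and the 616 others at 51.0, and in EHF the 180 cells above had it at 65.9 and the 3314 others at 13.9. The set was picked for this, so the ratios describe Spry2 and support nothing. Actb, the cytoplasmic actin gene, which was not in the set, was higher in the same cells, at 4690 against 1440 CPM in MS-LS, 17100 against 3180 in OB-EB and 5580 against 1160 in EHF. Dusp6 differed by log2 ratios of 0.19, 0.24 and -0.38 in the 3 libraries and Etv5 by -0.05, 0.07 and -0.36. The interval of Dusp6 was off 0 in MS-LS (0.04 to 0.35). By class, Dusp6 in MS-LS stood at 1.19 (0.46 to 1.93) in anterior primitive streak-like cells and 0.06 (-0.26 to 0.36) in epiblast-like cells. In EHF, Etv4 (-1.16, -2.38 to -0.17) and Fgfr2 (-0.84, -1.80 to -0.02) were lower in the cells above the limit, and in MS-LS Fgfr3 was (-1.09, -2.17 to -0.13).

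Differences in Spry2 between stages therefore came with differences in these transcripts, and their part in the result was not tested. Among cells at or below the limit, Spry2 in epiblast-like cells stood at a log2 ratio of -0.42 in place of 0.35 (OB-EB over MS-LS), in the nascent mesoderm comparison across stages at 0.22 in place of -1.38, and in streak cells at 0.68 in place of 2.24. Between nascent mesoderm-like and epiblast-like cells it stood at -1.25 in place of -0.40 in MS-LS and at -0.60 in place of -2.13 in OB-EB. In streak cells Spry4 stood at -0.07 in place of -2.14, on no more than 2 UMIs in OB-EB, and Fgfr1 at 1.67 in place of 0.62. Most OB-EB cells lay above the limit. Ratios that use OB-EB cells within it rest on a small part of that library and are given without intervals. Between presomitic and paraxial mesoderm-like cells of EHF Spry2 stood at 0.25 in place of 0.62, and between caudal epiblast-like and rostral neuroectoderm-like cells at 1.86 in place of 2.18. The ratios moved less between Exe ectoderm-like and other cells of MS-LS (-1.35 in place of -1.36), OB-EB (-1.16, -1.25) and EHF (-2.22, -2.33).

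**Figure D4:**
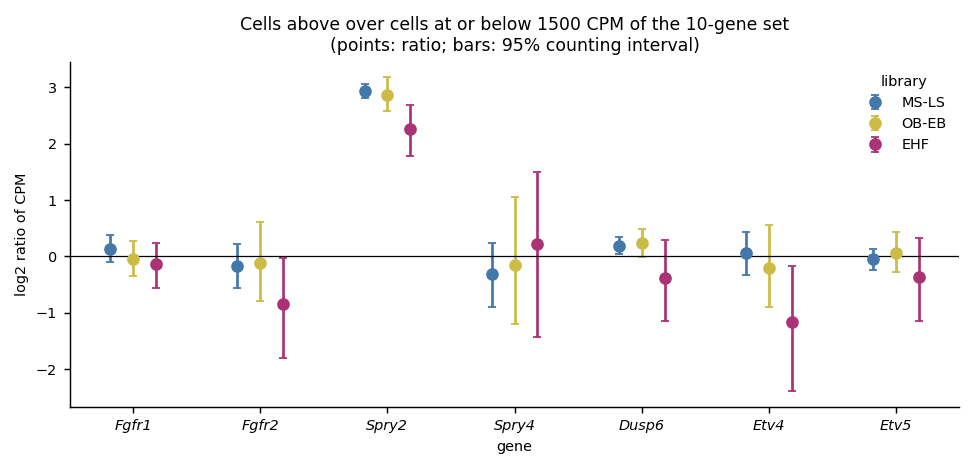
Log2 ratio of CPM (y axis) between cells above and cells at or below 1500 CPM of the 10-gene set, for 7 of the genes (x axis) in the 3 libraries (colours); bars are 95% counting intervals. Spry2 lies between 2.25 and 2.93, while most intervals of the other genes cross 0.

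The Exe ectoderm-like cells, 515 in MS-LS, 243 in OB-EB and 516 in EHF, were set against all other cells of their library. Fgfr2 was the 1 gene of the 9 higher past 2-fold at each stage, with log2 ratios of 3.59 (3.22 to 3.97), 3.38 (2.87 to 3.88) and 1.56 (1.31 to 1.80), where 8.32% of 11993, 8.83% of 11434 and 7.36% of 13456 genes were higher. In either direction 26.1%, 23.9% and 27.5% of genes passed 2-fold. The number of genes lower past 2-fold was 2, 3 and 5 of 9, where 17.8%, 15.0% and 20.2% of genes were lower. Spry2 was among them at each stage (-1.36, -1.25 and -2.33), and Fgfr3 was also (-3.59, -1.48 and -3.16), on 1 UMI in the class in MS-LS (-8.91 to -1.05) and in OB-EB (-6.82 to 1.10). The third in OB-EB was Spry4 on 2 UMIs (-1.12, -4.20 to 0.81). At EHF the lower genes further included Fgfr1 (-1.33, -1.60 to -1.07), Dusp6 (-1.78, -2.30 to -1.30) and Spry4 (-1.20, -2.30 to -0.26). Every ligand gene past 2-fold was lower in the Exe ectoderm-like class, 5 of 7 measured in MS-LS, 5 of 6 in OB-EB and 7 of 7 in EHF.

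Between the Exe ectoderm-like cells of EHF and of MS-LS, 2 of the 9 genes, both feedback targets, were lower past 2-fold in EHF, where 4.95% of 9698 genes were, and 1 was higher, Fgfr3 on 4 and 1 UMIs (under the minimum of 20), where 12.6% were (17.6% in either direction). Dusp6 stood at 72.0 CPM in MS-LS, 87.8 in OB-EB and 10.4 in EHF (EHF over MS-LS -2.79, -3.34 to -2.28), so EHF lay below both earlier libraries, whose intervals overlapped. Spry2 stood at 78.6, 142 and 3.65 CPM (-4.43, -5.36 to -3.63), and at -2.92 among cells with the 10-gene set at or below its limit. Etv5 stood at 37.6, 32.5 and 18.8 CPM (-1.0, -1.46 to -0.55), a value just short of 2-fold and past it with 2 other scalings of the libraries (-1.23 and -1.24). Etv4 stood at 12.5, 9.76 and 14.3 CPM (0.19, -0.45 to 0.85), and Fgfr2 differed by -0.14 (-0.42 to 0.15). The lower targets were not particular to this class. In all other cells of MS-LS and EHF, Dusp6 stood at 86.4 and 35.7 CPM, Spry2 at 201 and 18.3, and Etv5 at 62.3 and 31.2. Etv4 there stood at 15.1 and 25.5 CPM. The median log2 ratio of all genes in this comparison was 0.25. Among EHF Exe ectoderm-like clusters, that led by Elf5 and Eomes (139 cells) had Dusp6 at 21.9 CPM and Etv5 at 32.9, and that led by Mt2, Rhox6 and Ascl2 (189 cells) had 2.85 and 7.12, so the class was not uniform at EHF.

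Visceral and Exe endoderm-like cells, 544, 285 and 333 in MS-LS, OB-EB and EHF, had Dusp6 and Etv5 in EHF at levels whose intervals overlapped those of MS-LS. Their Dusp6 stood at 63.5, 117 and 64.4 CPM, their Spry2 at 80.5, 162 and 20.6, their Etv5 at 75.7, 58.8 and 67.1, and their Etv4 at 25.8, 12 and 21.0. At EHF, Etv5 (56.8 to 78.7) and Spry4 (15.2 CPM, 10.5 to 21.2) had their highest level of any class here, although Fgfr1 stood at only 17.9 CPM. Intervals of definitive endoderm-like (59.7 CPM), node and notochord-like (52.6), caudal epiblast-like (51.4) and presomitic mesoderm-like cells (48.5) overlapped that of Etv5. For Spry4, intervals of presomitic mesoderm-like (11.3 CPM, 16 UMIs) and caudal epiblast-like cells (10.4 CPM, 25 UMIs) overlapped that of the class, so these were not told apart. Whether the 2 classes differed in their change between stages was not tested, as each stage was 1 library.

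**Figure D5:**
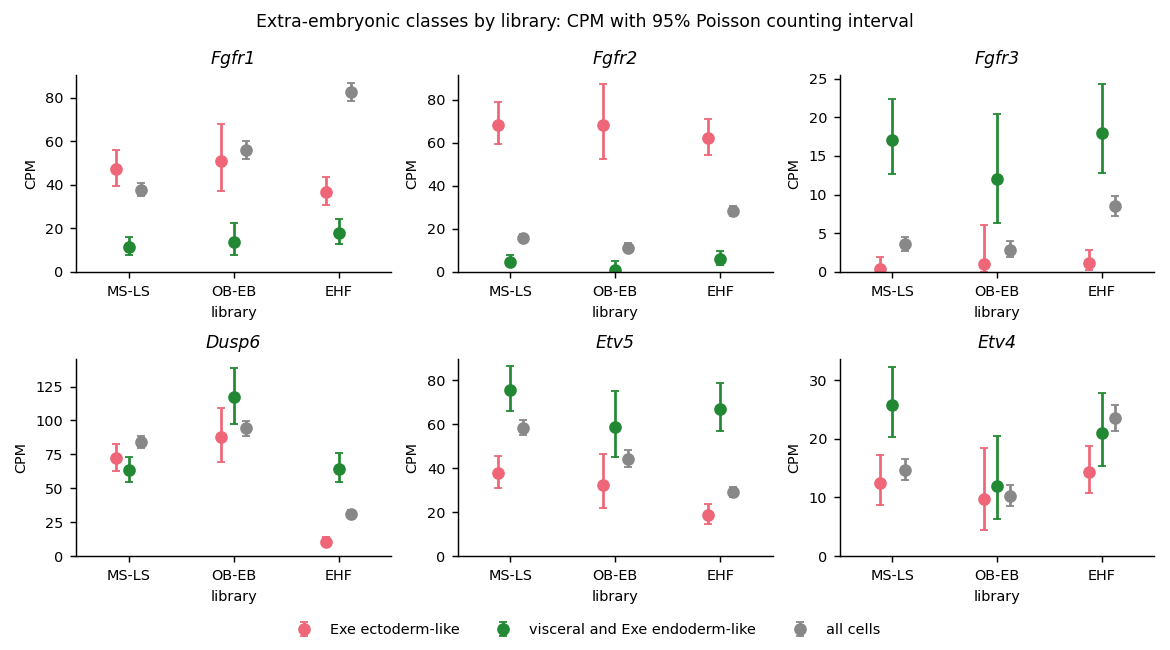
Level (CPM, y axes from 0) of 6 of the genes in Exe ectoderm-like cells, visceral and Exe endoderm-like cells and all cells of the 3 libraries (x axis); bars are 95% Poisson counting intervals. Dusp6 in Exe ectoderm-like cells stands at 10.4 CPM at EHF and that of visceral and Exe endoderm-like cells stands at 64.4; Fgfr2 in Exe ectoderm-like cells lies between 62.3 and 68.5 CPM throughout.

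No MS-LS cluster took the name of definitive endoderm. Definitive endoderm-like cells of EHF (75 cells, led by Trh and Cer1) were set against the unnamed MS-LS cluster with the highest score for it (2.076, 125 cells, led by Dkk1, Fzd5 and Kitl). Fgfr1 stood at 87.2 against 9.22 CPM (3.24, 1.77 to 5.19) and Fgfr2 at 52.8 against 4.61 (3.52, 1.5 to 6.65), and with Fgfr3 on 7 and 1 UMIs 3 of the 9 were higher past 2-fold, where 14.0% of 4809 genes were. Over the alternatives Fgfr1 lay between 1.44 and 3.72. Of the 4 that were lower (10.4% of genes were, or 24.4% in either direction), 2 had at least 20 UMIs, and only Spry2 had an interval off 0 (11.5 against 99.1 CPM, -3.11, -4.80 to -1.78), and it stood at -1.49 among cells within the limit of the 10-gene set. Etv5 stood at 59.7 and 30.0 CPM (0.99, -0.02 to 2.08). Because the MS-LS group carries no name, this is a comparison of 2 clusters, and the median log2 ratio of all genes in it was 0.15. The choice of that group was close, as the anterior primitive streak-like cluster of MS-LS (157 cells, led by Cer1, Lefty1 and Hhex) scored 2.007 for definitive endoderm. Fgfr1 in that cluster was higher than in the cluster used, at 47.6 CPM in 48 cells above the limit of the 10-gene set and 24.6 in the 109 others.

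Node and notochord-like cells, led by cilium genes such as Foxj1, had the highest Dusp6 of the named classes at the early stages, 169 CPM in MS-LS (117 to 236, 61 cells) and 151 in OB-EB (95.7 to 226, 61 cells), and stood at 58.4 in EHF (28.0 to 107, 43 cells). These intervals overlapped those of nascent mesoderm-like cells in MS-LS (113 CPM), and of epiblast-like (91.3 CPM) and visceral and Exe endoderm-like cells in OB-EB. Fgfr1 in node and notochord-like cells was 4.96 CPM on 1 UMI in MS-LS, and 52.5 and 93.5 CPM in OB-EB and EHF. In the blood classes of EHF all 9 genes were low. In erythroid-like cells (99 cells, Hbb-bh1 at 5030 CPM) the 9 genes lay between 0 and 7.60 CPM, and in blood progenitor-like cells (129 cells) between 0 and 11.2. The same classes had the highest levels of an FGF ligand gene in any named class, Fgf3, with 470 CPM (421 to 523) in blood progenitor-like and 384 (333 to 441) in erythroid-like cells.

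Detection in single cells was sparse. After thinning to 2000 UMIs, the share of EHF presomitic mesoderm-like cells with a UMI of Dusp6 was 13.6% (30.9% unthinned, median 5003 UMIs), against 1.01% of erythroid-like cells both thinned and unthinned (median 5147 UMIs). Etv4 was found in 14.7% of thinned caudal epiblast-like cells (38.8% unthinned, median 6149.5 UMIs) and in 0 of 99 erythroid-like cells. At least 1 of the 5 targets was found in 37.4% (31.4% to 43.6%) of thinned presomitic mesoderm-like and 33.8% of caudal epiblast-like cells, in 32.0% of visceral and Exe endoderm-like cells, and in 5.03% of rostral neuroectoderm-like and 2.02% of erythroid-like cells. At least 3 of the 5 were found together in 0.389% of thinned presomitic mesoderm-like cells (1 of 257, interval 0.00985% to 2.15%), so joint expression in a cell could not be read at this depth.

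Across the 28 named classes of at least 20 cells in the 3 libraries, log2(CPM + 10) of Dusp6 and Etv5 gave a Pearson r of 0.83, of Spry2 and Dusp6 0.79, of Etv4 and Etv5 0.63 and of Dusp6 and Etv4 0.55. Over the 15 EHF classes these pairs gave 0.88, 0.66, 0.78 and 0.79. Other pairs of targets were looser in part. Over the 28 classes Spry2 gave 0.62 with Etv5, 0.20 with Spry4 and 0.14 with Etv4 (0.49, 0.36 and 0.52 over the 15). Spry4 gave 0.52 with Etv4, 0.50 with Etv5 and 0.43 with Dusp6 (0.69, 0.57 and 0.62 over the 15). Fgfr1 gave 0.11 with Dusp6 over the 28 classes and 0.58 over the 15, and Fgfr2 gave -0.10 and 0.07. These values are descriptions over classes that share libraries and depth.

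The genes whose pattern over the same 28 classes was most like each member, among 5720 genes that reached 50 CPM, were Sh3bgrl (0.86) and Sept6 (0.82) for Fgfr1, and Fbxw2 (0.76) and Dag1 (0.76) for Fgfr2. They were P3h2 (0.89) and Sertad2 (0.83) for Fgfr3, and Kdelr3 (0.96) and Fam134b (0.92) for Fgfr4. Kdelr3, a retrieval receptor of the secretory pathway, reached 570 CPM in EHF parietal endoderm-like cells. Spry2 was closest to Gm38299 (0.94) and Skil (0.94), and Spry4 to Apln (0.64) and Dlat (0.60). Dusp6 was closest to Phpt1 (0.83) and Psmb2 (0.81), Etv4 to Nefm (0.68) and Eef1akmt1 (0.68), and Etv5 to Spint2 (0.77) and Slc25a13 (0.74). Nefm peaked, as Etv4 did, in caudal epiblast-like cells of EHF, at 124 CPM.

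Of the other genes of the pathway, the highest levels in a named class belonged to Gpc3 (1340 CPM), Gpc4 (257) and Sdc4 (210) among co-receptors and adaptors. Gpc3 and Gpc4, cell-surface heparan sulfate proteoglycans, peaked in OB-EB definitive endoderm-like cells and Sdc4 in OB-EB Exe ectoderm-like cells. Among ligands, Fgf8 reached 365 CPM in MS-LS anterior primitive streak-like cells and Fgf5 295 in OB-EB node and notochord-like cells. Among genes from RAS to ERK, Map2k2 reached 346 CPM in EHF erythroid-like and Nras 223 in OB-EB mesenchyme-like cells. Fos (164), Spred1 (157) and Dusp1 (89.4) led the further response genes, with Fos and Dusp1 highest in Exe ectoderm-like cells.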

How the data were processed

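Single cells of whole mouse embryos were sequenced in 3 libraries. Per the submitters' processing notes, the authors aligned reads with Cell Ranger (version 3.0.2) to GRCm38 and deposited UMI counts per gene and cell, in 4 tables of which 2 hold the same EHF cells; all deposited cells had at least 500 genes and 1000 UMIs. Deposited counts were used as they stand. No column belonged to another series.

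Each library was clustered in Seurat (version 5.3.0; scale factor 10000, 2000 variable genes without the FGF lists and reporters, 50 principal components, resolution 4.5). Clusters were named from markers of 25 cell types, with at least 3 markers detected (in 20% of cells and 2-fold above other cells), a score margin of 0.2 to the next type and no majority of foreign markers among the 10 leading genes. Automatic doublet calls by Scrublet marked 6, 0 and 13 cells, which is too few to rely on, so doublets stayed in and the 5% highest scores were left out as an alternative. The libraries shared 18, 12 and 14 cell barcodes pairwise.

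UMIs were summed per class and scaled to CPM, with exact Poisson intervals; ratios carry the interval of the split of 2 Poisson sums (Clopper-Pearson), and shares Clopper-Pearson intervals, all at 95% and for counting error only. Groups without a UMI of a gene entered its ratio with 3 UMIs, which makes the ratio a bound, and the ratio was left out where 3 UMIs came to more than the level of the other group. Past 2-fold means a log2 ratio of at least 1 in size. The background counts genes with at least 20 UMIs over both groups. Shares were thinned to 2000 UMIs per cell. With 1 library per stage no p-value was computed; edgeR (version 4.0.16) and DESeq2 (version 1.42.0) gave only other scalings. The ratio code was tested on simulated data. The genes and lists were chosen with earlier results of these data known. Genes named are the members, the 2 most like each by Pearson correlation of log2(CPM + 10) over classes of at least 20 cells, and the 3 highest of each other FGF list, with exceptions said to be named after their values were seen. One result under this rule is not reported here.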

Additional observations from a re-analysis of the deposited data

Results flagged for a closer look

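Fgfr1 in Exe ectoderm-like cells against all other cells of the library was higher in MS-LS (log2 ratio 0.40, 0.12 to 0.67) and lower in EHF (-1.33, -1.60 to -1.07), each beyond counting error, and stood at -0.15 (-0.61 to 0.28) in OB-EB. The opposite directions drew attention to it. The level of Fgfr1 in the class was 47.3, 51.0 and 36.7 CPM in MS-LS, OB-EB and EHF, and in all other cells 35.9, 56.5 and 92.5 CPM, so the other cells moved more than the class did. The difference between the stages was not tested, since each stage was 1 library.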

How the results depend on the processing

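Under all 12 alternatives, 6 to 8 of the 9 genes passed 2-fold between EHF caudal epiblast-like and rostral neuroectoderm-like cells (Etv4 4.31 to 6.03, Etv5 3.10 to 4.26, Spry2 1.68 to 2.78, Dusp6 0.97 to 3.65, Fgfr2 -3.78 to -2.19), and 5 to 7 in the presomitic comparison. Fgfr2 in Exe ectoderm-like over other cells stayed within 3.12 to 3.81 (MS-LS), 3.30 to 4.08 (OB-EB) and 1.53 to 1.81 (EHF), and Dusp6 in that class from MS-LS to EHF within -3.04 to -2.43. Of 27 pairs of gene and library, 18 to 27 kept the class with the highest level.

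Of 1282 recomputed log2 ratios, 1215 stayed within their interval, 58 moved and 9 reversed; of 160 recomputed counts 135 stayed within 1.5 times. Counts that moved: MS-LS nascent mesoderm-like over epiblast-like, 1 in place of 2 at resolutions 2 and 8, with means over cells, thinning and DESeq2 scaling, and 0 with Leiden; anterior over other streak, 1 in place of 2 without high Scrublet scores, with thinning and with the 10-gene limit; cardiac over paraxial, 1 in place of 2 with Leiden; Exe ectoderm-like over others, 5 in place of 3 (MS-LS) and 2 in place of 4 (OB-EB) with thinning; nascent mesoderm across stages, 1, 4 and 0 in place of 2 at resolution 2, at resolution 8 and with Leiden; Exe ectoderm-like across stages, 5 in place of 3 at resolution 2, with Leiden and with means over cells, and 6 with TMM and DESeq2 scaling. The 10-gene limit, chosen after seeing the data, also gave 1 (OB-EB nascent over epiblast-like, in place of 3), 1 (streak, 2), 2 (OB-EB Exe ectoderm-like, 4), 1 (epiblast-like across stages, 2) and 0 (nascent across stages, 2). Joint detection of at least 3 targets rose from 0.389% to 4.46% with 3500 UMIs per cell.

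Reversed ratios were Etv5 in MS-LS nascent over epiblast-like (0.07 with thinning) and OB-EB (0.10 with the 10-gene limit), Fgfr1 in presomitic over paraxial (0.50 at resolution 2), and Spry2 in OB-EB nascent over epiblast-like (0.76 at resolution 8), in epiblast-like across stages (-0.42 with the 10-gene limit) and in nascent mesoderm across stages (0.01 and 1.61 at resolutions 2 and 8, 0.30 with Leiden, 0.22 with the 10-gene limit). The cause was not tested. No paired analysis was possible because each stage held 1 library and no test between groups was made. Depth limits every gene with few UMIs, Fgfr4, Fgfr3 and Spry4 among them.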

Other observations

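In EHF, an unnamed cluster of 124 cells led by Crabp2, Pou5f1, Stmn2 and Irx3, with a median of 2098 UMIs per cell, had Etv4 at 64.5 CPM and Etv5 at 3.23, and Dusp6 at 12.9. In the caudal epiblast-like class Etv4 and Etv5 stood at 82.3 and 51.4 CPM. The values of the cluster rest on 20 UMIs of Etv4, 1 of Etv5 and 4 of Dusp6, and the part of depth was not tested.

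An EHF cluster of 58 cells led by Hbb-bh1 and Cited4 had no UMI of any of the 9 genes but Dusp6 (7.55 CPM). An MS-LS cluster of 170 cells with a median of 1574 UMIs, led by Ubb and Exosc7, had Fgfr1 at 13.5 CPM and Etv4 at 27.0.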
